A study of Mus musculus with 72 samples.

Results

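The comparison described here is that of arrhythmic feeding with night-restricted feeding in mouse liver at zeitgeber time 2 (ZT02, 2 h after lights on). It rests on 9 of the 72 libraries of the series: 6 from arrhythmically fed mice and 3 from night-restricted mice, chosen by their labelled paradigm and time alone. All were male wild-type C57BL/6J mice with a starting age of 43 to 49 days, kept in 12 h of light and 12 h of dark with free access to water. The 6 arrhythmic libraries were 3 labelled arrhythmic and 3 labelled as arrhythmic without full adaptation, here called incompletely adapted. The timing of the meals, the number of days on each schedule and the criterion of adaptation were not stated in the labels. Night-restricted mice are those whose food was confined to the dark phase, per the paradigm's name. No label states whether a replicate is a separate animal, so the spread between libraries may be technical. Gene p-values measure that spread within groups pooled over all 72 libraries, not over the 9 alone.

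Mice eat mostly in the dark, so ZT02 falls in the first hours of their rest phase, when a night-fed liver passes from processing nutrients toward fasting. Liver genes for sterol, lipid, glycogen, heme and amino acid metabolism, and those for protein folding, are known to follow both feeding and the clock, a loop in which CLOCK and BMAL1 activate the Period and Cryptochrome genes that repress them. An arrhythmic schedule, by its name, has no daily meal rhythm, while the light cycle, which sets the central clock of the brain, remains. The comparison asks how livers under the arrhythmic paradigm differ, at this hour, from livers under the night-restricted one. How rhythmic the food intake of the arrhythmic groups was is not given.

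Levels are CPM, a gene's counts scaled to a common library total, and differences are fitted log2 values of the mean of both arrhythmic groups minus night-restricted, with the standard error (SE). A gene was called when its p from edgeR's quasi-likelihood test, adjusted by Benjamini-Hochberg over 12712 genes, was under 0.05. Library totals at ZT02 ran from 5938121 to 8207650 counts. In bulk liver, fewer cells of a type and less RNA per cell cannot be told apart. Hepatocyte markers were abundant in all 9 libraries, at a summed 24256 to 27446 CPM in the arrhythmic and 27072 to 32460 CPM in the night-restricted libraries (Alb, Apoa1, Ttr, Serpina1c and Tat).

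Night-restricted replicate 1 stood apart from the other libraries. Each library was given a GC slope, the change in log2 CPM, relative to each gene's mean, per SD of GC content in the gene's last 500 transcribed bases. It was 0.342 in night-restricted replicate 1, 0.141 in replicate 2 and 0.0221 in replicate 3. The arrhythmic libraries had -0.0726, 0.0774 and 0.00861, and the incompletely adapted libraries -0.197, -0.0238 and -0.0122. Night-restricted slopes were higher, with replicate 3 inside the arrhythmic range (exact two-sided permutation p = 0.0238, adjusted p = 0.0714 over 3 measures; the smallest p that 84 splits allow is 0.0119). The same library had the lowest mitochondrial share of counts, 2.46%, against 3.89 to 5.53% in the other 8, and the lowest TMM scaling factor, 0.813 against 0.956 to 1.11. The mitochondrial share did not pass the test between groups (exact two-sided permutation p = 0.226, adjusted p = 0.339). Results are therefore given with and without that library, and the part of library composition in them was not tested.

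**Figure D1:**
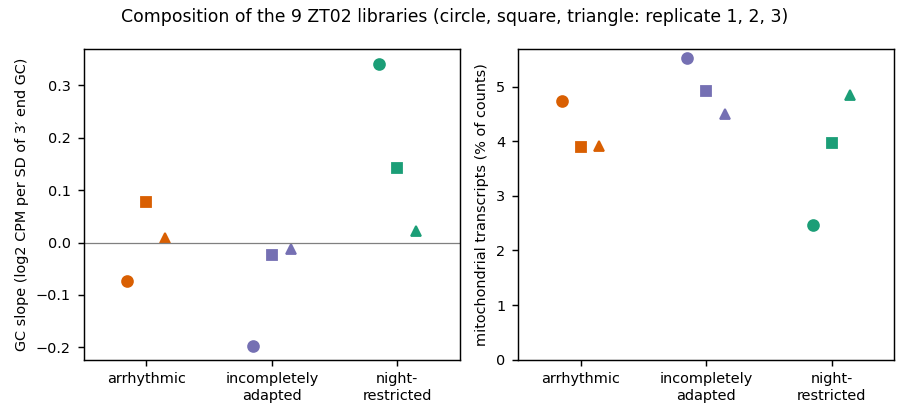
GC slope (left) and mitochondrial share of counts (right) of the 9 libraries at ZT02, 1 point per library, with replicates 1, 2 and 3 as circle, square and triangle. Night-restricted replicate 1 has the highest slope, 0.342, and the lowest mitochondrial share, 2.46%.

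At ZT02, 311 of 12712 genes differed between the arrhythmic groups and night-restricted feeding (2.45%). Of these, 26 were higher in the arrhythmic groups (0.205%) and 285 were lower (2.24%), and 15 and 177 respectively differed by at least 2-fold. The median difference was 1.11 on the log2 scale in the genes called higher and -1.08 in those called lower, against 0.01 over all genes. An unadjusted p under 0.05 was reached by 2697 of the 12712 genes, and limma voom with sample weights called 2267. Counts of list members by these measures are to be read beside those numbers. Voom gave night-restricted replicates 1, 2 and 3 weights of 0.308, 3.35 and 0.688, so its night-restricted mean leaned on replicate 2. In 196 of the 311 the 6 arrhythmic libraries lay on one side of all 3 night-restricted ones, which was so for 1191 of all genes tested (9.37%; 6% with all 6 above and 3.37% with all 6 below). Scaled by library totals alone, 82 genes were called, 21 higher and 61 lower, and the median of all genes was then 0.19. Without night-restricted replicate 1, 0 genes were called by edgeR, with 724 at an unadjusted p under 0.05. All 26 and all 285 genes kept their direction there, with medians of 0.89 and -0.77, and 26 and 249 of them had an unadjusted p under 0.05. These genes had been called with the remaining libraries included, so their direction and p there are no independent support. The count was 19 without arrhythmic replicate 1 and 125 without arrhythmic replicate 2, and it was 89, 183 and 128 without incompletely adapted replicates 1, 2 and 3. Night-restricted replicate 1 was the highest of the 3 night-restricted libraries in 202 of the 285 lower genes and the lowest in 23 of the 26 higher genes. Over all 12712 genes it was the highest in 3478 and the lowest in 6872. Genes called lower had a median GC content of 52.0% in the last 500 bases, those called higher 44.7%, and all genes 46.4%. After adjustment for GC slope 41 genes were called, 29 of them among the 311 (5 higher and 24 lower).

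The higher genes are described first. Alas1, whose enzyme sets the pace of heme production in liver, showed the largest difference of the named genes that were higher (GRCm38 chromosome 9, 106233455 to 106248654). Its level was 57.8, 16.5 and 58.1 CPM in the arrhythmic and 36.0, 24.9 and 34.9 CPM in the incompletely adapted libraries, against 3.54, 6.21 and 8.42 CPM in the night-restricted ones. The groups did not overlap, although arrhythmic replicate 2 had less than any other arrhythmic library. The difference was 2.46 ± 0.62 (SE) on the log2 scale (edgeR adjusted p = 0.0263), and 2.27 without night-restricted replicate 1. Mid1ip1, which promotes assembly of acetyl-CoA carboxylase and so fatty acid synthesis, was also higher (chromosome X, 10715013 to 10719690). It had 131, 80.6 and 132 CPM in the arrhythmic, 145, 81.2 and 89.4 CPM in the incompletely adapted and 17.0, 43.0 and 55.2 CPM in the night-restricted libraries. All 6 arrhythmic libraries lay above all 3 night-restricted ones, and the log2 difference was 1.36 ± 0.33 (SE; edgeR adjusted p = 0.0210) and 1.07 without replicate 1.

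Chaperone genes supplied 4 more of the higher genes. Chordc1 encodes a co-chaperone of HSP90 and lies on chromosome 9, 18292125 to 18317442. Its RefSeq promoter (GRCm38.p6, chr9:18292047-18292296, plus strand, 220 bases before the transcription start to 30 after it) is shown because Chordc1 was called both in the joint comparison and in the incompletely adapted group alone, and because the sequence holds 3 overlapping matches to a heat shock element, the site of heat shock factors. Capitals mark the matches.
Chordc1: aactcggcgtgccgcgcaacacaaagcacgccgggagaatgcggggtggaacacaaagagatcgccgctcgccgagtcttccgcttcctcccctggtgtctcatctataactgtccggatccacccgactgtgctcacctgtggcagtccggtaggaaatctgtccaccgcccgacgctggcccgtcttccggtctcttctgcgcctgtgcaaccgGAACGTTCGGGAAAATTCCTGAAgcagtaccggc
The element was searched on both strands as GAA, any 2 bases, TTC, any 2 bases and GAA. It was found in 0.603% of 32851 RefSeq promoters of 300 bases, and in 1 of the 21 higher genes with a promoter in that table. A match describes letters and is no evidence of binding.

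Chordc1 was at 41.2, 46.5 and 42.2 CPM in the arrhythmic, 70.0, 55.9 and 62.4 CPM in the incompletely adapted and 13.7, 23.1 and 28.6 CPM in the night-restricted libraries. The 3 groups formed separate ranges, with the incompletely adapted highest. The log2 difference of both groups from night-restricted was 1.09 ± 0.26 (SE; edgeR adjusted p = 0.0210), and 0.92 without night-restricted replicate 1. Dnaja1, a cytosolic partner of HSP70 proteins, had 247, 253 and 230 CPM in the arrhythmic, 302, 246 and 302 CPM in the incompletely adapted and 56.1, 131 and 140 CPM in the night-restricted libraries (log2 difference 1.12 ± 0.29, edgeR adjusted p = 0.0269; 0.87 without replicate 1). Every arrhythmic library was above every night-restricted one. In the list of 23 heat shock proteins these 2 were called higher, beside 0.205% of all genes, and 0 lower, and the median difference was 0.22. It was 0.06 without replicate 1, where no member was called, and Hspa8 and Hsph1 were the members called, both higher, after adjustment for GC slope.

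Dnajb9 and Hyou1 act in the endoplasmic reticulum, where Dnajb9 is a partner of the chaperone BiP and Hyou1 a large HSP70-type chaperone. Dnajb9 had 49.7, 48.8 and 42.2 CPM in the arrhythmic, 84.3, 52.1 and 59.8 CPM in the incompletely adapted and 10.1, 26.6 and 22.6 CPM in the night-restricted libraries. Hyou1 had 78.1, 53.0 and 39.3 CPM, 69.4, 62.0 and 73.7 CPM, and 6.91, 21.6 and 30.6 CPM in the same order. Neither gene overlapped between arrhythmic and night-restricted libraries, and night-restricted replicate 1 was lowest for both. Log2 differences were 1.32 ± 0.33 for Dnajb9 and 1.53 ± 0.43 for Hyou1 (SE; edgeR adjusted p = 0.0261 and 0.0438), and 1.07 and 1.18 without that replicate. These were the only members called of 23 genes for endoplasmic reticulum chaperones and the unfolded protein response, beside 0.205% of all genes called higher. Of the 23, 18 were above 0, beside 6410 of all 12712 genes, with a median of 0.32 (0.38 without replicate 1, none called). Hspa5, which encodes BiP itself, did not pass the test (log2 difference 0.23 ± 0.22, edgeR adjusted p = 0.532).

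**Figure D2:**
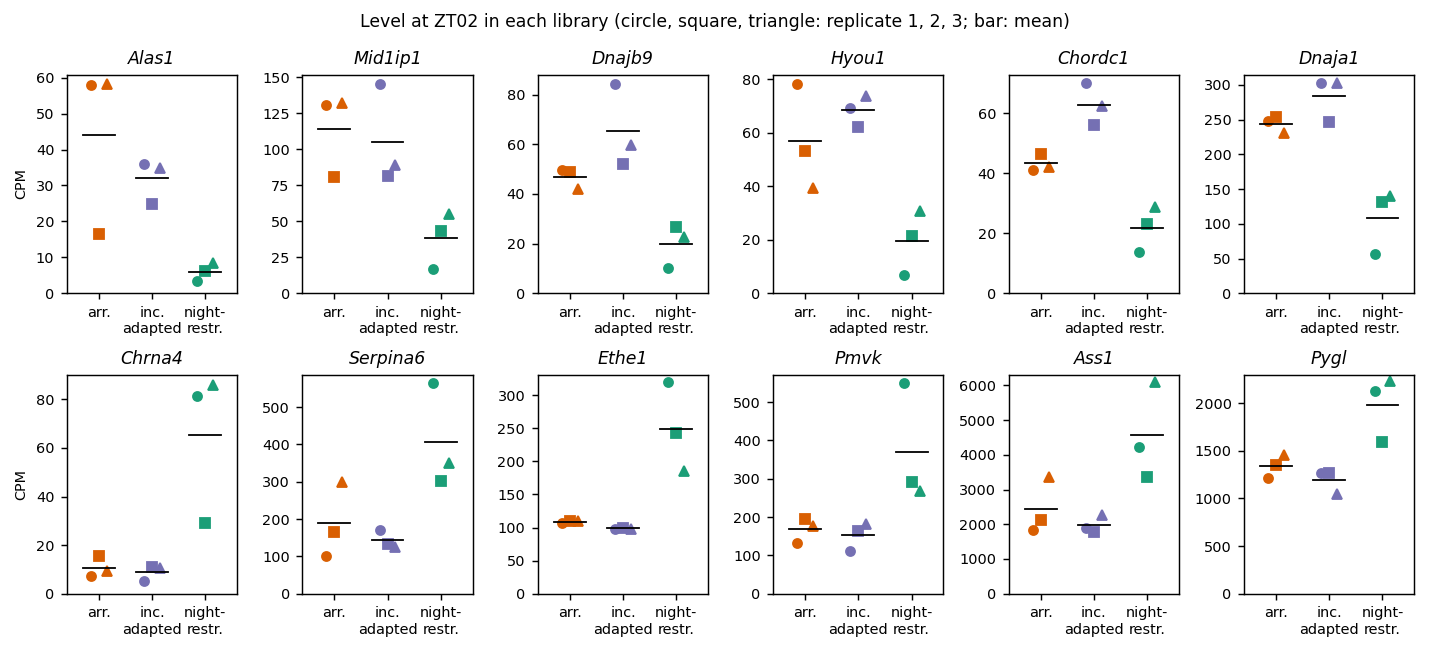
Level in CPM (linear axis from 0) of 12 called genes in each of the 9 libraries at ZT02, with the mean of each group as a bar and replicates 1, 2 and 3 as circle, square and triangle. The upper row holds genes that were higher in both arrhythmic groups, the lower row genes that were lower; Ass1 is the gene here whose groups overlap, with arrhythmic replicate 3 at 3371 CPM and night-restricted replicate 2 at 3369 CPM.

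The remaining higher genes named by the rule had differences of 0.62 to 1.32 on the log2 scale. They did not overlap between groups, which the rule required of them and which is no result. Tsku, a protein secreted by the liver, had 23.8, 18 and 40.3 CPM in the arrhythmic, 17.9, 14.6 and 43.4 CPM in the incompletely adapted and 9.81, 8.65 and 8.93 CPM in the night-restricted libraries. Its night-restricted values were close together, and its difference was larger without replicate 1 (1.32 ± 0.34, edgeR adjusted p = 0.0320; 1.49 without). Dcun1d4, a factor in cullin neddylation, ran from 17.6 to 22.8 CPM over the 6 arrhythmic libraries against 9.49, 12.3 and 9.60 CPM (0.72 ± 0.17, edgeR adjusted p = 0.0210; 0.75 without). Olig1, a transcription factor known from the oligodendrocyte lineage, ran from 18.7 to 33.8 CPM against 8.68, 8.53 and 12.8 CPM (1.19 ± 0.32, edgeR adjusted p = 0.0342; 1.20 without). Pde12, a mitochondrial phosphodiesterase, had a difference of 0.81 ± 0.20 (0.72 without). These 4 genes were also called after adjustment for GC slope. Nap1l1, Borcs5 and Vps37a, for a histone chaperone, a lysosome-positioning subunit and an ESCRT-I subunit, differed by 0.78, 0.96 and 0.62 and were not called with it.

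Among the named lower genes the smallest p-values belonged to Ethe1 and Cd82. Ethe1, Cd82, Chrna4, Serpina6, Cyp39a1, Cadm1, Pigt, Snord13, Ctsa and Pip4p1 were named from genes without overlap, so their separation was a condition of naming. Ethe1, the mitochondrial persulfide dioxygenase that clears sulfide, lies on chromosome 7, 24587543 to 24608925. It was nearly constant in the arrhythmic libraries, at 106, 109 and 109 CPM, and in the incompletely adapted ones, at 98.1, 99.9 and 98.5 CPM, against 320, 243 and 185 CPM under night-restricted feeding. The spread lay in the night-restricted group alone, and every one of its libraries was above the rest (-1.50 ± 0.27, edgeR adjusted p = 0.00273; -1.15 without replicate 1). Cd82, a membrane tetraspanin, had 31.6, 37.6 and 57.1 CPM, 40.2, 33.5 and 32.2 CPM, and 93.1, 65.7 and 78.0 CPM in the same order (-1.25 ± 0.22, edgeR adjusted p = 0.00273; -0.99 without). Chrna4, a subunit of nicotinic acetylcholine receptors, had the largest difference of the named genes (chromosome 2, 181018380 to 181043546). It was at 7.15, 15.5 and 9.21 CPM in the arrhythmic and 5.26, 10.8 and 10.7 CPM in the incompletely adapted libraries, against 81.2, 29.0 and 86.1 CPM. Its lowest night-restricted value, in replicate 2, was still above all 6 (-2.94 ± 0.58, edgeR adjusted p = 0.00784; -2.61 without replicate 1).

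Serpina6 encodes corticosteroid-binding globulin, the carrier of glucocorticoids in blood. It had 102, 166 and 298 CPM in the arrhythmic, 170, 134 and 124 CPM in the incompletely adapted and 563, 302 and 350 CPM in the night-restricted libraries. Arrhythmic replicate 3 lay just under night-restricted replicate 2, and the groups did not overlap (-1.55 ± 0.30, edgeR adjusted p = 0.00784; -1.08 without replicate 1). Cyp39a1, an oxysterol hydroxylase of bile acid synthesis, ran from 6.71 to 12.4 CPM over the 6 arrhythmic libraries against 25.2, 23.9 and 21.2 CPM, a tight night-restricted group (-1.40 ± 0.29, edgeR adjusted p = 0.00793; -1.23 without). Cadm1, a cell adhesion molecule, ran from 40.7 to 50.8 CPM against 73.5, 65.7 and 75.3 CPM (-0.79 ± 0.16, edgeR adjusted p = 0.00793; -0.66 without). Pigt, a subunit of the transamidase that attaches GPI anchors, ran from 25.3 to 58.7 CPM against 93.7, 80.7 and 134 CPM (-1.64; -1.60 without). Ethe1, Cd82, Chrna4, Serpina6, Cyp39a1, Cadm1, Pigt and Ctsa were the 8 of 32 named lower genes also called after adjustment for GC slope. The rest of the named lower genes included Snord13, a small nucleolar RNA at 68.6 to 129 CPM against 587, 347 and 348 CPM (-2.34; -1.90 without). Poly(A)-primed libraries do not target such RNAs and the strand setting of the counting was not stated, so reads of an overlapping transcript cannot be told apart there.

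Ctsa, the lysosomal protease cathepsin A, and Pip4p1, a lysosomal phosphatidylinositol bisphosphate phosphatase, were lower and hold a pair of E-boxes each in their promoters. Both windows run from 220 bases before to 30 after the RefSeq start on GRCm38.p6, Ctsa at chr2:164833553-164833802 on the plus strand and Pip4p1 at chr14:50930820-50931069 on the minus strand. They are shown because the E-box CACGTG, in capitals, is the letter sequence read by CLOCK-BMAL1 and by TFEB-type lysosomal factors.
Ctsa: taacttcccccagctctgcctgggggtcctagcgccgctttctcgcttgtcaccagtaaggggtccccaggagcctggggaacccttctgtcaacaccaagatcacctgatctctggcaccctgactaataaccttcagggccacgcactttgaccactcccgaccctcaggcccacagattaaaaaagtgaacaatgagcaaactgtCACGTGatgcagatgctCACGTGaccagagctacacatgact
Pip4p1: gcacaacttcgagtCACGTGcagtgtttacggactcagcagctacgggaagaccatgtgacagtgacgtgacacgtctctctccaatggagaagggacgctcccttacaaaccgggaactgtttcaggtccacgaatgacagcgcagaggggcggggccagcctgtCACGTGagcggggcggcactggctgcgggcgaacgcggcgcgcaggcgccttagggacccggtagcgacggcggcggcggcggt
An E-box was found in the promoters of 29 of 211 lower genes (13.7%) and of 1105 of 9289 tested genes (11.9%), which are close to each other, and in 7.15% of all 32851 promoters. Ctsa had 100, 103 and 144 CPM in the arrhythmic, 99.7, 98.0 and 89.2 CPM in the incompletely adapted and 215, 166 and 209 CPM in the night-restricted libraries. Pip4p1 had 46.4, 48.2 and 68.8 CPM, 56.6, 50.5 and 49.4 CPM, and 123, 74.4 and 84.7 CPM in the same order. Neither overlapped, and the differences were -1.11 ± 0.22 and -1.05 ± 0.22 (SE; edgeR adjusted p = 0.00784 and 0.0111), or -0.92 and -0.67 without replicate 1.

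In cholesterol synthesis, 4 of 25 members tested were called lower in the arrhythmic groups, beside 2.24% of all genes, and 0 were called higher. In all, 24 of 25 had a difference below 0, beside 6302 of all 12712 genes, with a median of -0.36. Pmvk, which phosphorylates mevalonate phosphate, had 132, 194 and 177 CPM in the arrhythmic, 112, 165 and 183 CPM in the incompletely adapted and 549, 291 and 269 CPM in the night-restricted libraries. Replicate 1 stood well above the other night-restricted replicates, and all 3 were above the 6 arrhythmic libraries (-1.45 ± 0.36, edgeR adjusted p = 0.0249; -0.89 without it). Fdps, Nsdhl and Dhcr7, for farnesyl diphosphate synthesis, sterol demethylation and the last reduction to cholesterol, differed by -0.95, -0.85 and -0.86 (edgeR adjusted p = 0.0432, 0.0413 and 0.0372) and by -0.70, -0.57 and -0.83 without replicate 1. All 4 had every arrhythmic library below every night-restricted one. Over the whole list that was so for 6 of 25 members, beside 3.37% of all genes. The list's median was -0.36 without replicate 1, where no member was called.

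Genes of fuel metabolism were called lower where they were called, with Mid1ip1 as the exception. Acacb, the carboxylase that makes malonyl-CoA at the mitochondrion, had 39.9, 73.6 and 61 CPM in the arrhythmic, 53.4, 49.7 and 43.9 CPM in the incompletely adapted and 108, 80.8 and 105 CPM in the night-restricted libraries. All 6 values were below the night-restricted ones (-1.08 ± 0.29, edgeR adjusted p = 0.0341; -0.88 without replicate 1). It was the 1 of 22 lipogenic genes called lower and Mid1ip1 the 1 called higher, beside 2.24% and 0.205% of all genes. The list's median was -0.54. Fasn, the fatty acid synthase, did not pass the test (-0.65 ± 0.45, edgeR adjusted p = 0.363). Pygl, liver glycogen phosphorylase and so the enzyme that opens glycogen stores, had 1217, 1350 and 1454 CPM, 1271, 1266 and 1041 CPM, and 2121, 1587 and 2236 CPM in the same order. It did not overlap (-0.85 ± 0.23, edgeR adjusted p = 0.0336; -0.68 without) and was the 1 of 16 glycogen genes called, beside 2.45% of all genes.

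In glycolysis and glucose use 3 of 20 genes were called, all lower, beside 2.24% of all genes. The median was -0.14, which became -0.08 without replicate 1, where none was called, 0.06 when counts were scaled by library totals alone and 0.025 after adjustment for GC slope. Pdk2, an inhibitor of pyruvate dehydrogenase, had 42.1 to 69.6 CPM over the 6 arrhythmic libraries against 229, 102 and 69.7 CPM. The lowest night-restricted value lay just above the highest arrhythmic one, and replicate 1 carried much of the difference (-1.64 ± 0.44, edgeR adjusted p = 0.0332; -0.83 without). Tkt, the transketolase of the pentose phosphate pathway, and Pgam1, a glycolytic mutase, overlapped between groups and differed by -1.15 and -1.25 (-0.98 and -0.94 without). Ass1, the argininosuccinate synthase of the urea cycle, had 1832, 2119 and 3371 CPM, 1879, 1791 and 2272 CPM, and 4217, 3369 and 6092 CPM in the 3 groups. Arrhythmic replicate 3 reached the level of night-restricted replicate 2, and the difference changed little without replicate 1 (-1.24 ± 0.30, edgeR adjusted p = 0.0210; -1.18 without). Ass1 and Bckdha, a subunit of the branched-chain keto acid dehydrogenase (-1.05; -0.80 without), were the 2 of 31 amino acid and urea cycle genes called. The share over all genes was 2.45%. Hadha, of mitochondrial fatty acid oxidation, was the 1 of 30 PPARA and ketogenesis genes called (-0.98; -0.74 without). Cox4i1, a subunit of complex IV, was the 1 of 27 nuclear respiratory chain genes called (-0.96; -0.55 without). Both counts stand beside the same 2.45%. Of 14 genes of gluconeogenesis and fasting 0 were called by edgeR (2 at an unadjusted p under 0.05) and 0 by limma voom with sample weights, with Pck1 at 1.31 ± 0.89 (edgeR adjusted p = 0.356).

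In the integrated stress response, the program that slows translation and induces ATF4, 4 of 14 members tested were called lower, beside 2.24% of all genes, and 0 higher, with a median of -0.46 (-0.25 without replicate 1, none called). Atf5, a transcription factor translated under this response, had 563, 769 and 1010 CPM in the arrhythmic, 597, 852 and 769 CPM in the incompletely adapted and 1454, 1091 and 1478 CPM in the night-restricted libraries. Its groups did not overlap (-1.02 ± 0.30, edgeR adjusted p = 0.0493; -0.84 without). Gdf15, a circulating stress cytokine, had 32.5, 39.2 and 39.4 CPM, 63.1, 49.9 and 56.7 CPM, and 97.9, 32.8 and 184 CPM. Its night-restricted libraries were the least alike, and replicate 2 lay at the bottom of the arrhythmic range (-1.37 ± 0.34, edgeR adjusted p = 0.0255; -1.29 without). Trib3, a pseudokinase induced by ATF4, differed by -1.29 (-0.92 without), and Nupr1, a stress-responsive chromatin protein with a mean of 2.14 CPM, by -1.44. Cirbp encodes an RNA-binding protein induced by mild cold. It had 41.6, 48.6 and 32.7 CPM, 36.4, 36.3 and 23 CPM, and 63.0, 70.2 and 38.7 CPM. Night-restricted replicate 3 fell among the arrhythmic libraries (-0.88 ± 0.25, edgeR adjusted p = 0.0438; -0.70 without).

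Besides Alas1, the heme and iron list of 20 genes had 2 called lower, beside 2.24% of all genes. Slc11a2, an importer of ferrous iron, had 62.9 to 76.0 CPM over the arrhythmic libraries against 116, 84.1 and 92.3 CPM (-0.73; -0.46 without replicate 1). Blvra, the biliverdin reductase that acts on heme's breakdown product, had 18.7 to 27.8 CPM against 28.9, 29.0 and 39.9 CPM (-0.67; -0.64 without). Neither overlapped. Oaz2, an antizyme that restrains polyamine synthesis, was the 1 of 10 polyamine genes called (-0.83; -0.72 without), beside 2.45% of all genes. The lists for bile acids, metallothioneins, glucocorticoid-responsive genes, acute phase proteins, growth hormone and IGF, male-biased and female-biased genes, immediate early genes, ribosome biogenesis, cell cycle, splicing factors, and autophagy and lysosome had 0 genes called by edgeR, with 1 to 6 members of each at an unadjusted p under 0.05. By limma voom with sample weights, 0 (immediate early genes) to 6 (bile acids) members of each were called. Over all 12712 genes, 2697 had an unadjusted p under 0.05 and voom called 2267. Of the 12 male-biased genes, 11 were above 0, beside 6410 of all 12712 genes, with a median of 0.65. That median was 0.67 without night-restricted replicate 1 and 0.76 after adjustment for GC slope, and voom called 5 members, all higher. The 12 summed to 6984 to 21078 CPM in the arrhythmic and 7383 to 9490 CPM in the night-restricted libraries, which overlapped.

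**Figure D3:**
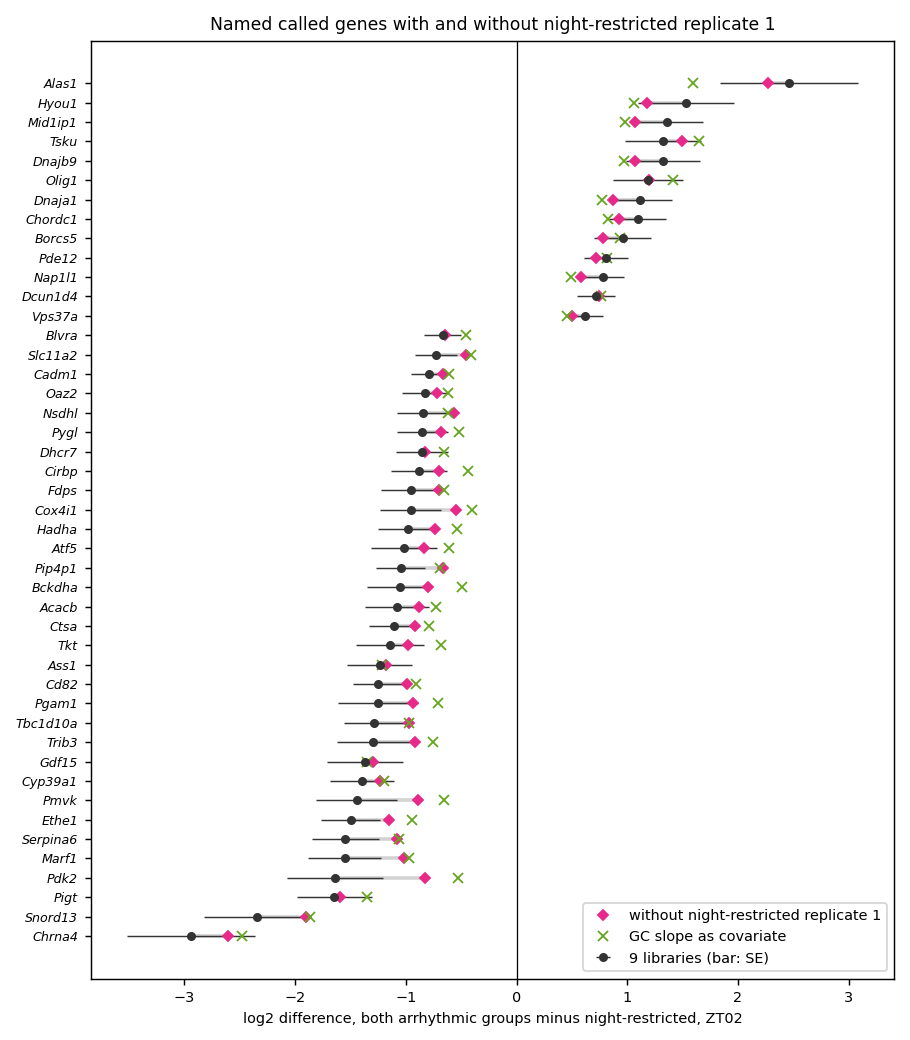
Log2 difference of both arrhythmic groups minus night-restricted at ZT02 for the 45 named genes that were called, from all libraries (circle with SE), without night-restricted replicate 1 (diamond) and after adjustment for GC slope (cross). All 45 keep their direction in both other fits, which reuse libraries by which these genes were called. The diamonds of the lower genes lie between -2.61 and -0.46.

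Over the 45 named genes that were called, 38 did not overlap between groups, beside 9.37% of all genes. Part of that count was fixed by the naming rule, which took the 12 genes in each direction only from genes without overlap. Of the 45, 43 had an unadjusted p under 0.05 without night-restricted replicate 1, and 12 were called after adjustment for GC slope. Beside the lower genes, all 7 Kupffer cell markers had differences below 0 (median -0.75, 0 called by edgeR with 4 at an unadjusted p under 0.05; -0.50 without night-restricted replicate 1 and -0.24 after adjustment for GC slope), and their summed level was 336 to 639 CPM in the arrhythmic and 580 to 929 CPM in the night-restricted libraries. For 6 sinusoidal endothelial markers the median was -0.46 (-0.11 without that replicate and -0.09 after the adjustment), with 0 called by edgeR, 3 at an unadjusted p under 0.05, and sums of 231 to 327 CPM against 298 to 372 CPM. Over all 12712 genes, 6302 had a difference below 0 and 2697 an unadjusted p under 0.05. The part of Kupffer and endothelial cells in the lower genes was not tested. Of the 5 pancreatic acinar markers, Cela1 was called lower (-1.18; -0.61 and not called without replicate 1, -0.63 and not called after the adjustment) and the other 4 were below the filter on low counts.

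Core clock genes did not pass the test at ZT02. Of 18 members 0 were called, with edgeR adjusted p from 0.114 to 0.984, and the median difference was -0.04. At an unadjusted p under 0.05 there were 7 members, beside 2697 of all 12712 genes. Limma voom with sample weights called Bhlhe40, Cry2 and Npas2, beside 2267 of all 12712. Ciart had 2 counts or fewer in each library, so no fold is given for it, and the median of the other 17 was 0.010, on the other side of 0. The median of the 18 was also above 0 with library totals alone (0.17), after adjustment for GC slope (0.026) and without night-restricted replicate 1 (0.030). Dbp, a clock-driven transcription factor and the member nearest to the threshold, had 4.72, 13.1 and 31.5 CPM in the arrhythmic, 10.5, 5.25 and 5.07 CPM in the incompletely adapted and 4.66, 4.51 and 1.68 CPM in the night-restricted libraries. Its ranges did not overlap, by a narrow margin, and arrhythmic replicate 3 was far above the others (1.31 ± 0.47, edgeR adjusted p = 0.114; 1.62 without night-restricted replicate 1). Per2, a repressor of the loop, had 7.73, 5.28 and 9.35 CPM, 10.4, 7.73 and 7.61 CPM, and 1.45, 3.41 and 4.72 CPM (1.16 ± 0.52, edgeR adjusted p = 0.196; 0.89 without). Bhlhe40, another repressor, had 63.4, 35.8 and 46.3 CPM, 24.7, 19.3 and 19.7 CPM, and 7.56, 15.8 and 16.7 CPM, with the arrhythmic group above the incompletely adapted one (1.10 ± 0.49, edgeR adjusted p = 0.192). Bhlhe41, at under 4 CPM, was the remaining member with all 6 arrhythmic libraries above, and Npas2, a partner of BMAL1, the 1 member with all 6 below (-1.05 ± 0.44). That is 5 of 18 members without overlap, beside 9.37% of all genes.

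Arntl, which encodes BMAL1, had 6.58, 6.27 and 2.88 CPM in the arrhythmic, 6.06, 8.17 and 8.21 CPM in the incompletely adapted and 1.13, 3.05 and 11.5 CPM in the night-restricted libraries. The 3 night-restricted libraries spanned more than the arrhythmic ones, so the mean hides their spread (0.17 ± 0.59). Clock had 24.3 to 30.9 CPM over the arrhythmic libraries and 28.9, 26.8 and 31.3 CPM, an overlap of nearly the whole range (-0.24 ± 0.20). Nr1d1, the repressor REV-ERB alpha, had 19.3 to 33.1 CPM against 55.3, 29.2 and 22.9 CPM, a difference that rested on replicate 1 (-0.84 ± 0.45; -0.23 without). Cry1, a repressor, had 9.16, 8.41 and 4.32 CPM, 8.77, 14 and 8.21 CPM, and 13.3, 11 and 11.3 CPM (-0.65 ± 0.31). Per1 had 3.43, 3.42 and 6.62 CPM in the arrhythmic against 1.12, 0.73 and 2.24 CPM in the incompletely adapted libraries, and the night-restricted libraries, at 2.57, 2.56 and 1.68 CPM, overlapped the latter. Of 15 clock-controlled liver output genes 0 were called by edgeR, with 5 at an unadjusted p under 0.05, beside 2697 of all 12712 genes. Limma voom with sample weights called Lgalsl, Upp2, Leo1 and Ppard, beside 2267 of all 12712. The median of the list was -0.35, and -0.16 without night-restricted replicate 1.

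**Figure D4:**
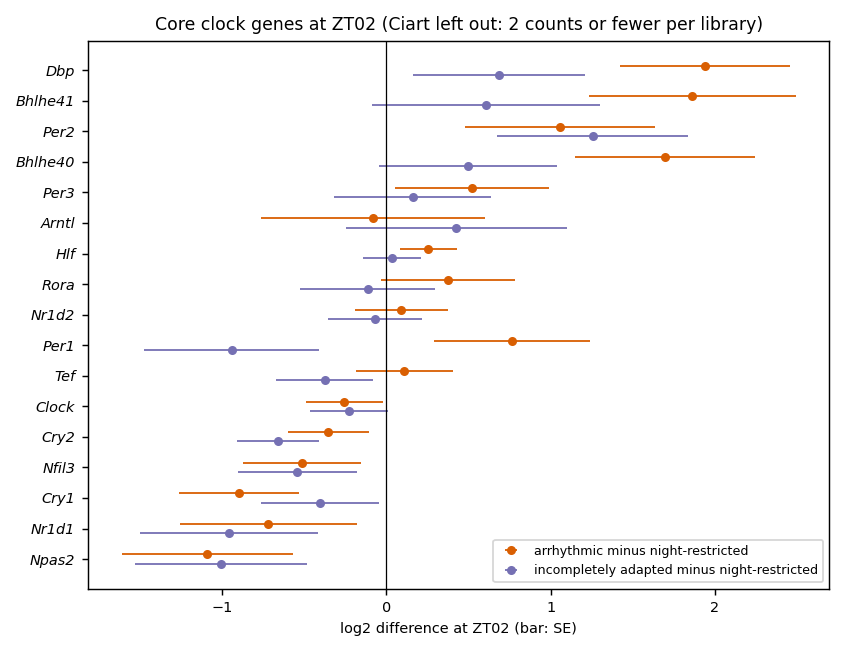
Log2 difference from night-restricted feeding at ZT02, with SE, of 17 core clock genes in the arrhythmic and in the incompletely adapted group (Ciart left out for its 2 counts or fewer per library). Both comparisons use the same 3 night-restricted libraries, and the groups point opposite ways for Per1.

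The 2 arrhythmic groups were also taken separately, each against the same 3 night-restricted libraries. The arrhythmic group alone had 0 genes called by edgeR (1350 at an unadjusted p under 0.05), with 7 by DESeq2, and the incompletely adapted group alone had 53 (0.417%), of which 9 were higher (0.0708%) and 44 lower (0.346%). The count for this group was 0 without any 1 of the incompletely adapted libraries or night-restricted replicate 1, and 129 and 119 without night-restricted replicates 2 and 3. Among genes called in the joint comparison the median differences were 0.98 and 1.17 for the higher genes in the arrhythmic and the incompletely adapted group, and -0.98 and -1.16 for the lower genes. Chordc1 differed by 0.83 ± 0.29 in the arrhythmic and 1.36 ± 0.29 in the incompletely adapted group, Alas1 by 2.69 ± 0.67 and 2.23 ± 0.67, Ethe1 by -1.43 ± 0.32 and -1.57 ± 0.33, and Chrna4 by -2.81 ± 0.73 and -3.06 ± 0.74. Tested directly, the 2 arrhythmic groups had 0 genes called between them by edgeR (286 at an unadjusted p under 0.05), so a gene called in 1 group alone is not shown to differ between them. Chordc1 differed between them by 0.53 and Ethe1 by -0.14 on the log2 scale, incompletely adapted minus arrhythmic. Per1 had the value -1.70 ± 0.51 (edgeR adjusted p = 0.999).

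At the other times the same contrast called 262 genes at ZT06, 46 at ZT10, 9 at ZT14, 3 at ZT18 and 9 at ZT22. Of the 3 night-restricted libraries, the one labelled replicate 1 also had the lowest mitochondrial share of counts at each of these times. It was 2.07% at ZT06, 4.01% at ZT10, 4.05% at ZT14, 2.87% at ZT18 and 1.91% at ZT22. Replicates 2 and 3 had 4.30 to 5.80%. The part of these libraries in the counts and levels at other times was not tested. The ZT02 difference against the mean difference at the other 5 times had 0 genes called by edgeR (732 at an unadjusted p under 0.05; 3 by DESeq2), so that the named genes are not shown to be particular to ZT02. Changes over the day within a paradigm were not tested and are given as levels. Alas1 in night-restricted livers had 6.06 ± 2.45 CPM at ZT02 and 173 ± 102 CPM at ZT14 (SD, n = 3), and its arrhythmic means lay between 26.4 and 66.2 CPM over the 6 times. In the incompletely adapted group it had 193 ± 81.9 CPM at ZT10. Chordc1 under night-restricted feeding had 21.8 ± 7.57 CPM at ZT02 and 90.4 ± 22.8 CPM at ZT14, while the arrhythmic means ran from 42.2 to 57.8 CPM. Ethe1 was at 249 ± 67.4 CPM at ZT02 and 268 ± 121 CPM at ZT22 under night-restricted feeding, against 64.3 ± 15 CPM at ZT14, and the arrhythmic means ran from 63.2 to 108 CPM. Acacb had the smallest adjusted p of the named genes for the ZT02 difference against other times (-1.58 ± 0.32 on the log2 scale, edgeR adjusted p = 0.0925).

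**Figure D5:**
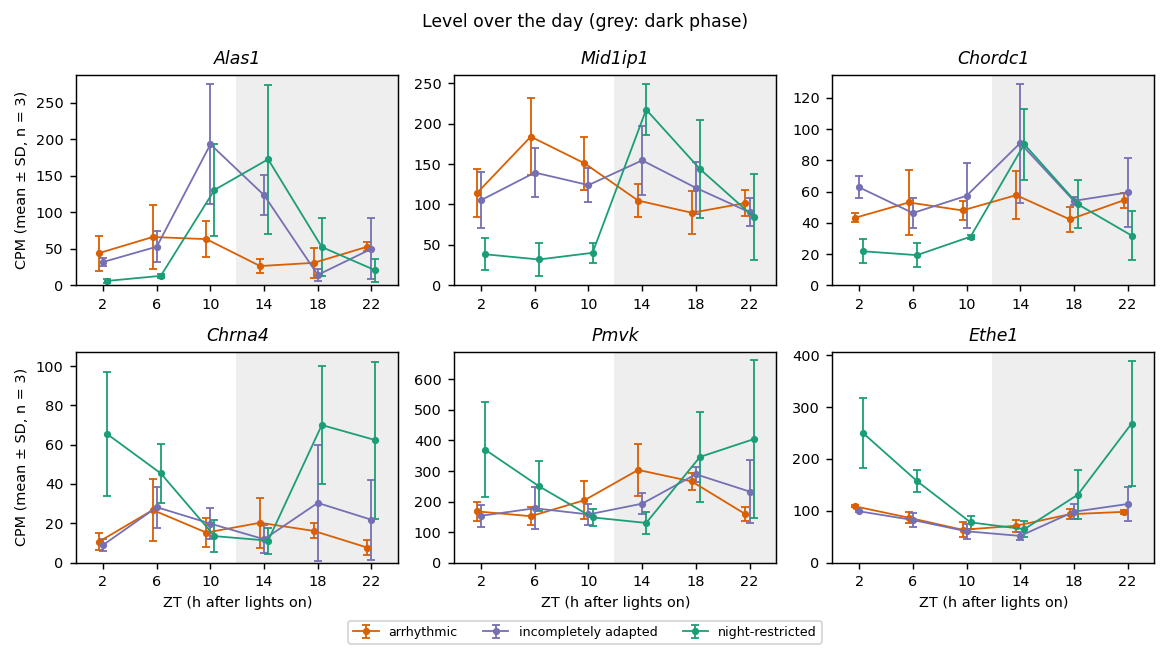
Mean level in CPM with SD (n = 3 per point) at 6 zeitgeber times of 6 genes in the arrhythmic, incompletely adapted and night-restricted groups; grey marks the dark phase. At ZT02 the night-restricted means are lowest for Alas1, Mid1ip1 and Chordc1 and highest for Chrna4, Pmvk and Ethe1, and at ZT14 the night-restricted mean of Chrna4, 11.2 CPM, is the lowest of the 3.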

How the data were processed

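Liver RNA was extracted with TRIzol and 3′ mRNA libraries were made with the Lexogen QuantSeq kit, per the labels' protocols. Reads were aligned with STAR 2.4.2a, with the builds mm10 and GRCm38.p5 named, per the submitters' processing notes. The counting tool and its strand setting were not stated in the labels. The authors deposited raw read counts for 51912 genes in 72 libraries, all of whose columns were assigned; a second deposited table equalled CPM of these counts to within 5.09e-11 and was not used. Symbols and positions came from GENCODE M21 (GRCm38), which matched 51633 identifiers; 279 had no match and 0.0107% of counts. Promoters came from RefSeq, GRCm38.p6, for 51 of the 63 named genes.

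Genes were filtered with filterByExpr over 24 groups of paradigm and time, leaving 12712. Counts were scaled by TMM, and 1 robust quasi-likelihood model with a mean per group was fitted to all 72 libraries (edgeR 4.0.16, limma 3.58.1, R 4.3.3), leaving 48 residual degrees of freedom. The contrast took both arrhythmic groups with equal weight. SE is the log2 difference divided by the square root of its F. Calls used an adjusted p of 0.05. In data simulated for the joint comparison over 12712 genes, 27 of 50 genes raised 2-fold and 47 of 50 raised 4-fold were called. Of those lowered, 29 of 50 at 2-fold and 42 of 50 at 4-fold were called, and there were 7 false calls. The rate of false calls in the measured libraries was not tested.

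The genes named are the tested core clock genes; in each other list, up to 4 called genes of smallest p with at least 5 CPM on average; and the 12 called genes of smallest p in each direction with at least 10 CPM and no overlap between groups. Predicted genes and near-identical copies were passed over, and genes outside the rule (Hspa5, Fasn, Pck1, Nupr1, Cela1) were chosen after their values were seen. Of the genes listed, 2 are not reported here and were left out of the lists. The comparison and the lists were chosen with earlier results of these data known. No 2 replicate libraries agreed within sampling noise. Alternatives were RLE factors or library totals, other filters, DESeq2 1.42.0, limma voom with sample weights, the GC slope as a covariate, a replicate block, the 9 libraries alone and leaving out each library. The GC slope without night-restricted replicate 1, and counts of list members under the alternatives, were added after the data were seen.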

Additional observations from a re-analysis of the deposited data

Results flagged for a closer look

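Of 66 groups of 6 arrhythmic libraries, 1 for each named gene and library measure, 9 had 1 library far from the other 5, its gap to the nearest exceeding 0.625 of the whole range (Dixon's 95% value for 6 libraries). Chance flags about 1 group in 20, and genes in the same libraries are not independent. Arrhythmic replicate 3 was the high library in 8 of the 9. It had 31.5 CPM of Dbp against a median of 7.89 CPM over the 6, 20.7 CPM of Pgam1 against 9.52 CPM, 3371 CPM of Ass1 against 1999 CPM and 110.8 CPM of Oaz2 against 85.7 CPM. It also had 57.1 CPM of Cd82 against 35.6 CPM, 297.8 CPM of Serpina6 against 150.1 CPM, 143.9 CPM of Ctsa against 100.05 CPM and 107.2 CPM of Marf1 against 56.4 CPM. In each of these 7 genes called lower, that library was the arrhythmic one nearest to the night-restricted group. Incompletely adapted replicate 1 had 59.5 CPM of Nap1l1 against a median of 48.7 CPM. Without arrhythmic replicate 3 the joint comparison called 336 genes.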

How the results depend on the processing

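For the joint comparison (311 genes), RLE factors gave 278, a minimum of 10 CPM 315 and DESeq2 365. Library totals gave 82, no filter on low counts 117 of 25393 genes and the GC slope 41. The GC slope without night-restricted replicate 1 gave 0, and the 9 ZT02 libraries alone gave 2, or 5 as 6 against 3. Limma voom with sample weights gave 2267, with weights of 0.308, 3.35 and 0.688 for night-restricted replicates 1, 2 and 3. Leaving out 1 library gave 0 to 452 genes. The incompletely adapted group (53) gave 13 with no filter, 124 with a minimum of 10 CPM, 12 with the GC slope and 2 with it but without night-restricted replicate 1, 0 in the 9 libraries alone, 1458 with voom, 260 with DESeq2 and 0 to 129 leaving out 1 library. The arrhythmic group (0) gave 1 with the GC slope, 881 with voom, 7 with DESeq2 and 0 to 3 leaving out 1 library. The ZT02 difference against other times (0) gave 2 with library totals, 1 with no filter, 2 with a minimum of 10 CPM, 414 with voom and 3 with DESeq2, and 0 leaving out any 1 library. The 2 arrhythmic groups had 0 genes between them under every alternative run. The cause of the shifts between settings was not tested. Where a group was left with 2 libraries, they were assumed to vary like the other groups.

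Replicate numbers did not pair the samples: deviations of same-numbered libraries correlated at a median of 0.02 (-0.54 to 0.62, 9 pairs) and of others at 0.04 (-0.50 to 0.56, 18 pairs). With the replicate block the joint count was 280 (274 of them among the 311), that of the incompletely adapted group 59, and both were 0 in the 9 libraries alone with the block. The block with the GC slope gave 50 for the joint comparison, 14 for the incompletely adapted group, 1 for the arrhythmic group and 4 for the ZT02 difference against other times.

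Of the 45 named called genes, all kept their direction throughout. That was favoured in advance, since every fit reuses libraries by which these genes were called. They stayed called in 45 with DESeq2, 44 with voom, 43 with RLE, 42 with the block, 22 with no filter, 21 with library totals, 12 with the GC slope, 2 in the 9 libraries alone and 0 without night-restricted replicate 1. Clock genes near 0, none called in either fit, changed sign. Leaving out 1 library gave -0.25 to 1.33 for Arntl, -0.38 to 0.10 for Per1, -0.20 to 0.26 for Nr1d2, -0.042 to 0.53 for Rora, -0.38 to 0.26 for Tef and -0.025 to 0.30 for Hlf. Values with the GC slope, with the block and the GC slope, and with the GC slope but without night-restricted replicate 1 were -0.57, -0.52 and -0.69 for Arntl, 0.041, 0.049 and 0.16 for Per1, 0.011, 0.022 and 0.18 for Nr1d1, -0.071, -0.049 and -0.15 for Rora, and 0.29, 0.30 and 0.47 for Tef. Library totals gave 0.11 for Per1 and 0.10 for Tef, voom -0.029 for Nr1d2 and -0.026 for Hlf, and 6 against 3 gave 0.19 for Per1.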

Other observations

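The ad libitum libraries at ZT02 (n = 3) belong to no comparison above, and their values are given as mean ± SD with no test. They had 47.2 ± 6.15 CPM of Chordc1, 57.6 ± 4.62 CPM of Hyou1 and 92.2 ± 8.73 CPM of Mid1ip1, near the means of the 6 arrhythmic libraries at 53.0 ± 11.7, 62.6 ± 14.5 and 110 ± 29.2 CPM, where night-restricted means were 21.8, 19.7 and 38.4 CPM. Alas1 was at 11.9 ± 6.07 CPM, between the night-restricted 6.06 ± 2.45 CPM and the arrhythmic 38.1 ± 17.0 CPM. Acacb was at 99.8 ± 23.6 CPM, near the night-restricted 97.9 ± 14.9 CPM. Cyp39a1, the oxysterol hydroxylase, was at 6.75 ± 2.15 CPM, below both the arrhythmic 10.4 ± 2.08 CPM and the night-restricted 23.4 ± 2.05 CPM.

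Groups of genes formed after the called genes were seen are descriptions only. Of 20 lysosomal proteins, enzymes and transporters that degrade and export cell material, 8 were called lower in the arrhythmic groups, beside 2.24% of all genes, and 0 higher (Ctns, Ctsa, Atp6ap1, Npc2, Npc1, Cln6, Grn and Glb1). Their median log2 difference was -0.62, and -0.26 without night-restricted replicate 1. Their summed level was 8986, 5464 and 5071 CPM in night-restricted replicates 1, 2 and 3, and 3885 to 4924 CPM over the 6 arrhythmic libraries. These 20 were gathered with the calls known, so the share over all genes does not measure an excess among them. The autophagy and lysosome list, not gathered this way, had 0 of 16 genes called by edgeR. The median of that list was -0.08, and 0.08 after adjustment for GC slope. Of 86 cytosolic ribosomal protein genes 5 were called lower, beside the same 2.24%, and 0 higher, with a median of -0.08. Of 112 ribosomal protein pseudogenes, whose reads cannot be told apart from those of their parent genes, 9 were called lower, beside that 2.24%, and 0 higher, while their median was 0.19 (0.05 without night-restricted replicate 1), above 0.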
